A study of Mus musculus with 10 samples.

Results

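The erythroid genes described here are Gata1, Klf1, Epor, Car1, Car2, Tfrc, Hemgn, Nfe2 and Alas2, a set of 9 regulators and differentiation genes of the red cell lineage picked by gene symbol from the 55573 gene identifiers in each count file. Their RNA was measured by bulk RNA sequencing in hematopoietic stem and progenitor cells (HSPCs) from bone marrow of C57BL/6 mice aged 16 weeks. Every mouse had received 500 cGy of radiation to the whole body, and the series' design text places the sampling 6 weeks later. The mice were given epidermal growth factor (EGF), a ligand of the EGF receptor, or saline under the skin, and each group had 5 libraries, called here Saline 1 to 5 and EGF 1 to 5. No unirradiated group was analysed here, so every value below comes from irradiated animals. The labels do not say how the cells were sorted, how often EGF was given, or whether each library came from its own mouse, so the p-values below measure the spread between libraries, which may be technical in part.

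Red cell production starts when multipotent progenitors commit to the erythroid lineage under the transcription factor GATA1 and its partners, which replace GATA2 at many sites. Committed progenitors survive and divide on signals from the erythropoietin receptor (Epor), import iron through the transferrin receptor (Tfrc), and then switch on KLF1 targets, heme synthesis and globin genes. Car1 and Car2 encode carbonic anhydrases, which interconvert carbon dioxide and bicarbonate, and Alas2 encodes the erythroid form of the first and rate-limiting enzyme of heme synthesis. GATA1, NF-E2 and carbonic anhydrase genes are not exclusive to red cells: megakaryocytes, mast cells and earlier progenitors use some of them too.

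Many erythroid promoters are known to carry GATA sites, which GATA factors bind, and CACCC boxes, which KLF1 and related factors bind. The sequences below show where such letters stand in front of the regulator Klf1, the receptor Epor, the enzyme Alas2 and the master regulator Gata1 itself. RefSeq's promoter table for GRCm38.p6 held a start site for 6 of the 9 genes. The search covered the 250 bases before each start. The GATA motif was searched as GATA with A or T before it and A or G after it, and the CACCC-type motif as CCNCNCCC, both on either strand, and capitals mark the matches, which did not overlap between motifs. Each sequence runs 5′ to 3′ on the gene's own strand and stops where an annotated exon begins. Gata1 is chrX:7967911-7968160 on the minus strand, Klf1 is chr8:84901732-84901927 on the plus strand, Epor is chr9:21963577-21963826 on the minus strand and Alas2 is chrX:150547167-150547374 on the plus strand.
Gata1: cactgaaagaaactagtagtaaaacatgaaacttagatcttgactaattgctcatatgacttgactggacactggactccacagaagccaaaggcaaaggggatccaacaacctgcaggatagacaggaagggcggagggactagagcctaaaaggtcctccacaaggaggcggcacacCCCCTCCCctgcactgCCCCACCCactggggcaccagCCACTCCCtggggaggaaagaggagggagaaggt
Klf1: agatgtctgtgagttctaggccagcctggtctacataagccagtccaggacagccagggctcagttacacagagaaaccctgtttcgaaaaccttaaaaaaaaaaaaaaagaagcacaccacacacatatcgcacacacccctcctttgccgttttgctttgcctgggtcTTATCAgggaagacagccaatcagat
Epor: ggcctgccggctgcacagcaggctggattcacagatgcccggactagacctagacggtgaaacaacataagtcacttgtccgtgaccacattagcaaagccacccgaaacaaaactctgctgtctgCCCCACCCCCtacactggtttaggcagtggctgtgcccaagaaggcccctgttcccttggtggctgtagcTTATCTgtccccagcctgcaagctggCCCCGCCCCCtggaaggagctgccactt
Alas2: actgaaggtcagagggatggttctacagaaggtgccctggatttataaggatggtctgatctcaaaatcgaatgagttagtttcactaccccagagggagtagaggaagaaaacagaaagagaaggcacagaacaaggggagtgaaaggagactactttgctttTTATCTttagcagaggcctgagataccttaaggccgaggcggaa

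The Gata1 window held 3 CACCC-type matches and no GATA match, and the Klf1 window held the reverse, 1 GATA match that begins 80 bases before the start and no CACCC-type match. Epor held both, with its GATA match 54 bases before the start between pairs of CACCC-type matches. Alas2 had its GATA match 86 bases before the start. In all, 4 of the 6 genes had a GATA match (Klf1, Epor, Alas2 and Hemgn) and 5 had a CACCC-type match (all but Klf1). The 4 CACCC-type matches of Alas2 begin 42 to 26 bases before the start, in an annotated exon past the printed sequence. Those of Hemgn, which is not printed, overlap in a run of G that fits the motif as searched, and its GATA match lies in an annotated exon. Among 32851 promoter windows of the same length, 26.5% held the GATA motif and 45.9% the CACCC-type motif. The motif TGANTCA, the core that NF-E2 binds, was in none of the windows of these genes and in 6.75% of all windows. A match is a string of letters in a window and says nothing of binding.

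The libraries held 6805106 to 8370820 counts. EGF 5 stood apart: 12731 genes had a count in it, against 18734 to 20046 in the others. Of the genes with a mean of at least 10 counts in the other libraries, 14.8% were at 0 in EGF 5, against 0.314% to 0.861% when each of the other libraries was set against the rest. It also held 442 genes with at least 10 counts at more than 4 times the level of the highest other library, where the other libraries held 1 to 36. Fold changes and list medians below are therefore given with and without EGF 5, while group means and sums of CPM include it unless stated. Kit, the stem cell factor receptor that marks these progenitors, was at 419 ± 27.0 CPM (counts per 1000000 counts of a library, scaled for library composition; SD, n = 5) with saline and 475 ± 20.4 CPM (n = 5) with EGF. Its log2 fold change was 0.18 (edgeR unadjusted p = 0.0282, adjusted p = 0.552), and 0.18 without EGF 5. Of the 12 stem and multipotent progenitor markers tested, 7 were above 0 and 5 below, with a median of 0.13 (0.11 without EGF 5). Procr, a marker of that list, was at 0 in EGF 5 alone.

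Set against gene length, Car2 was the most abundant of the erythroid genes in the saline group, at a mean of 103 CPM per kb of exons. Nfe2 followed at 44.9 CPM per kb and Car1 at 24.1 CPM per kb. Tfrc at 14.8 CPM per kb and Hemgn at 14.5 CPM per kb came next, then Gata1 at 6.51, Klf1 at 4.38, Epor at 2.10 and Alas2 at 0.493 CPM per kb. The 5 saline libraries were fully separated at 3 steps of this order, between Car2 and Nfe2, between Nfe2 and Car1, and between Hemgn and Gata1. At the other steps neighbouring genes overlapped. The erythroid heme enzyme gene and the erythropoietin receptor gene were therefore at the bottom of the order, and Car2, which earlier progenitors also use, was at the top.

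**Figure D1:**
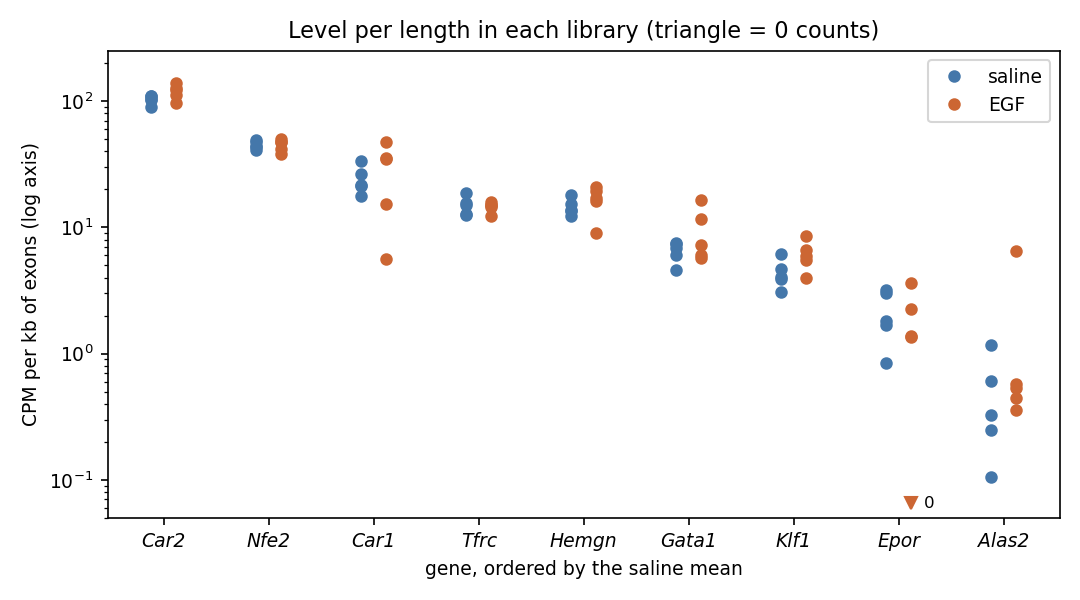
CPM per kb of exons (log axis) of the 9 erythroid genes in each saline and EGF library, ordered by the saline mean; a triangle marks a library with 0 counts. Car2 stands at the top with a saline mean of 103 CPM per kb and Alas2 at the bottom with 0.493 CPM per kb, and single EGF libraries lie far from their group for Epor, Car1 and Alas2.

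With all 10 libraries, none of the erythroid genes differed between EGF and saline beyond the spread between libraries. In edgeR's quasi-likelihood test 0 of the 8 that passed the filter on low counts had an adjusted p under 0.05, where 0.00777% of all 12874 genes tested did (1 gene), and 0 of 8 had an unadjusted p under 0.05, where 8.87% of all genes did. DESeq2 called 0 of the 8 it gave a p for (0.206% of all genes called), and limma-voom called 0 of 8 (0.00777%), both with 0 at an unadjusted p under 0.05 (10.2% and 7.43% of all genes). With quality weights limma-voom called 0 of 8 (0.0932%), with 2 at an unadjusted p under 0.05 (Car2 and Hemgn, both higher with EGF, as were 7.74% of all genes). The groups overlapped for all 9 genes, while 3.27% of all genes had groups that did not. Alas2 did not pass the filter. The log2 fold change, EGF minus saline, was above 0 for 6 of the 8 with a median of 0.20, and over all genes tested 48.5% were above 0 with a median of -0.01. Without EGF 5, 7 of the 8 were above 0 with a median of 0.26. Without EGF 2 the median was 0.09, and without EGF 2 and EGF 5 it was 0.01. Both were over 9 genes because Alas2 then passed the filter, so they cannot be set directly against the medians over 8. For the same 8 genes, the median without EGF 2 lies between Nfe2 (-0.02) and Hemgn (0.09). Without EGF 2 and EGF 5 it lies between Nfe2 (0.01) and Car2 (0.23).

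**Figure D2:**
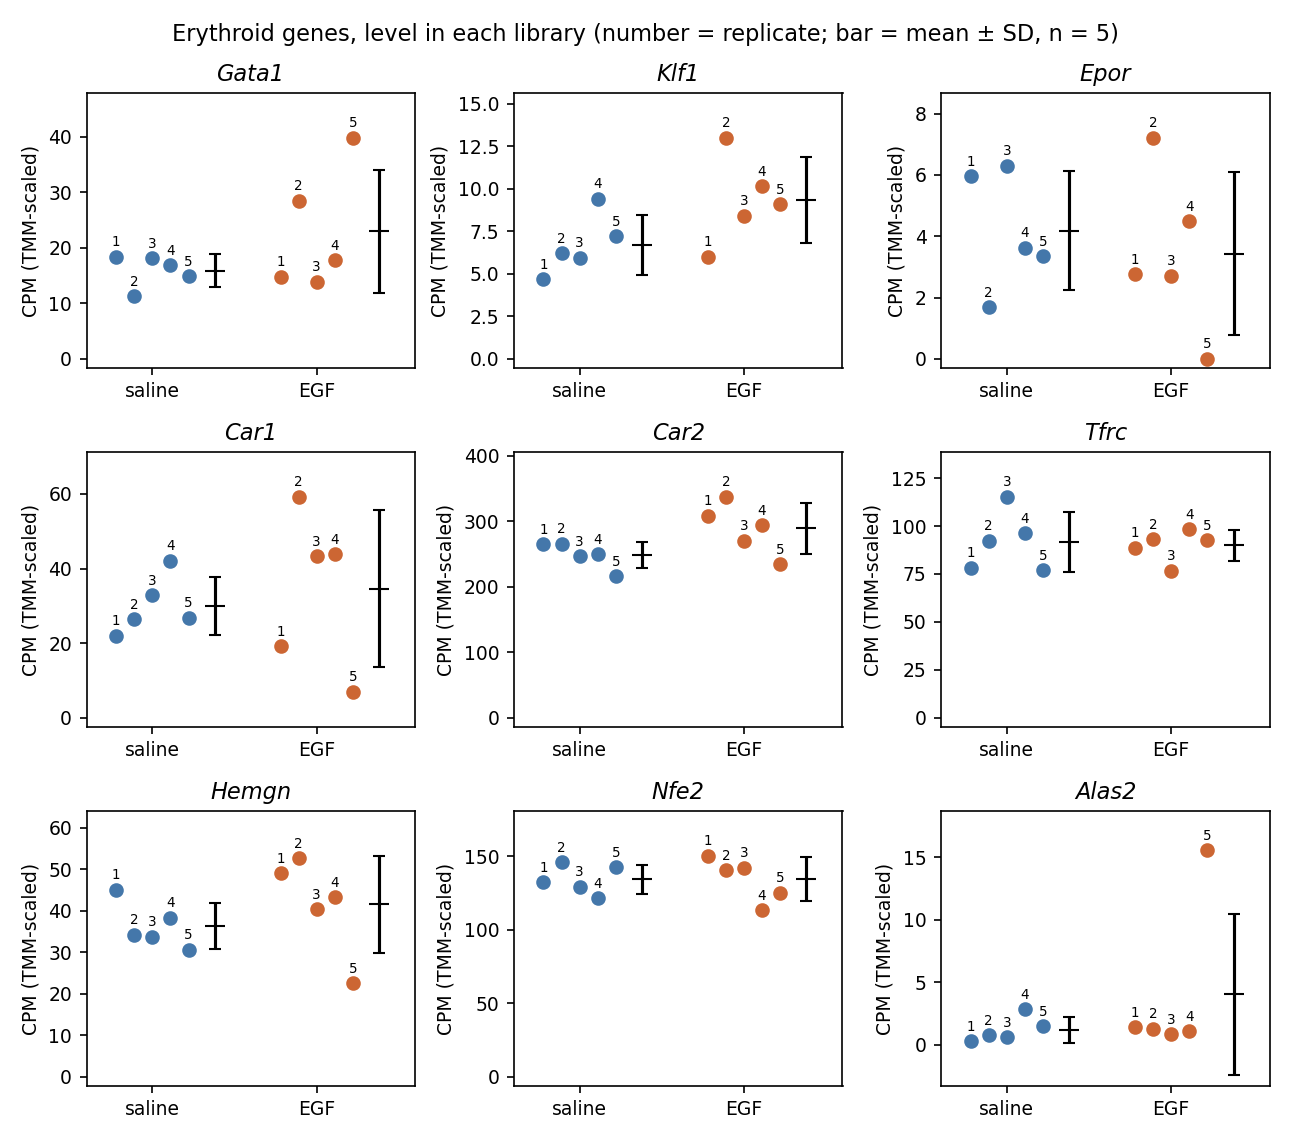
CPM of each of the 9 erythroid genes in the saline (blue) and EGF (orange) libraries; numbers are replicates, and bars give the mean ± SD (n = 5). No gene separates the groups with all 10 libraries, and EGF 5 lies outside the range of the other EGF libraries for Gata1, Epor, Car1, Car2, Hemgn and Alas2.

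Among the regulators, Gata1 was similar in most libraries and high in a pair of EGF libraries. Gata1 (ENSMUSG00000031162), on chromosome X at 7959260 to 7978071 on the minus strand of GRCm38, was at 18.4, 11.3, 18.1, 16.8 and 14.8 CPM in Saline 1 to 5 and at 14.8, 28.5, 13.8, 17.7 and 39.8 CPM in EGF 1 to 5. EGF 2 and EGF 5 lay above every saline library, and EGF 1, 3 and 4 lay within the saline range. The log2 fold change was 0.53 (SE 0.30, edgeR adjusted p = 0.584). It was 0.23 (SE 0.21, adjusted p = 0.617) without EGF 5 and -0.04 without EGF 2 and EGF 5. Gata2, which precedes GATA1 in the lineage, was at 252 ± 53.9 CPM with saline and 315 ± 44.3 CPM with EGF (n = 5 each; log2 fold change 0.32, and 0.26 without EGF 5). There were 4.18 to 7.99 Gata1 counts per 100 Gata2 counts with saline and 4.95 to 11.0 with EGF, so the groups overlapped in this ratio too.

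Klf1 encodes the factor that activates adult globin, membrane and heme genes in committed cells, and it had the second largest log2 fold change of the genes tested. Klf1 (ENSMUSG00000054191), on chromosome 8 at 84901928 to 84905291 on the plus strand, was at 4.70, 6.22, 5.94, 9.41 and 7.21 CPM in Saline 1 to 5. In EGF 1 to 5 it was at 6.02, 13.0, 8.42, 10.1 and 9.11 CPM. EGF 2 and EGF 4 exceeded all saline libraries, and the other 3 EGF libraries lay within the saline range. The log2 fold change was 0.48 (SE 0.29, edgeR adjusted p = 0.596), and 0.49 (SE 0.25, adjusted p = 0.348) without EGF 5, so the value of Klf1 hardly moved with that library. It was 0.33 without EGF 2, the highest library, and 0.29 without EGF 2 and EGF 5. These levels rest on 37 to 101 counts per library.

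Hemgn encodes hemogen, a nuclear protein of hematopoietic cells and a known GATA1 target. It lies on chromosome 4 at 46393989 to 46413506 on the minus strand (ENSMUSG00000028332). Hemgn was at 45.1, 34.2, 33.8, 38.3 and 30.6 CPM in Saline 1 to 5 and at 49.0, 52.7, 40.4, 43.2 and 22.6 CPM in EGF 1 to 5. EGF 1 and EGF 2 lay above all saline libraries, EGF 3 and EGF 4 above 4 of the 5, and EGF 5 below all of them. From all 10 libraries Hemgn had a log2 fold change of 0.19 (SE 0.21, edgeR adjusted p = 0.748). Without EGF 5 it was 0.35 (SE 0.12, adjusted p = 0.209), with an unadjusted p of 0.0111. Without EGF 2, the highest library, it was 0.09.

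Nfe2 encodes the large subunit of NF-E2, which acts at the globin locus and in platelet formation, and it was nearly level between the groups. Nfe2 (ENSMUSG00000058794), on chromosome 15 at 103248212 to 103258403 on the minus strand, ranged from 121 to 146 CPM with saline and from 113 to 150 CPM with EGF. The means were 134 ± 9.96 CPM and 134 ± 14.8 CPM (SD, n = 5 each), and the log2 fold change had a standard error of 0.09 (edgeR adjusted p = 0.999). Without EGF 5 it was 0.02 (SE 0.08, adjusted p = 0.916). Its dispersion between libraries was small, with a biological coefficient of variation of 0.126 against a median of 0.292 over all genes tested.

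Of the receptors, Epor was low and uneven. Epor (ENSMUSG00000006235), on chromosome 9 at 21958897 to 21963506 on the minus strand, was at 5.97, 1.69, 6.30, 3.63 and 3.34 CPM in Saline 1 to 5 and at 2.76, 7.21, 2.71 and 4.48 CPM in EGF 1 to 4. EGF 5 held 0 counts, which by counting error alone allows up to 0.420 CPM (3 counts), below the level of each of the other libraries. In EGF 5, 14.8% of the genes with a mean of at least 10 counts elsewhere were also at 0. The limit takes in no such loss, so the level of Epor in EGF 5 stays uncertain. EGF 1, 3 and 4 lay within the saline range and EGF 2 above it. The log2 fold change was -0.28 (SE 0.77, edgeR adjusted p = 0.896) with all libraries, a value that depends on how a count of 0 is handled, and 0.03 (SE 0.40, adjusted p = 0.980) without EGF 5. These levels rest on 13 to 56 counts in the other 9 libraries.

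Tfrc, which brings transferrin-bound iron into dividing cells of many kinds, differed little. Tfrc (ENSMUSG00000022797), on chromosome 16 at 32608920 to 32632794 on the plus strand, ranged from 76.9 to 115 CPM with saline and from 76.6 to 98.3 CPM with EGF. The means were 91.8 ± 15.6 CPM and 89.9 ± 8.16 CPM (SD, n = 5 each). Its log2 fold change was -0.03 (SE 0.12, edgeR adjusted p = 0.931), and its sign turned when Saline 3, the highest library, was left out (0.07) or EGF 3, the lowest (0.02). Without EGF 5 it was -0.04 (SE 0.12, adjusted p = 0.890). EGF 5, which was outside the other EGF libraries for most erythroid genes, was at 92.7 CPM for Tfrc.

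Of the enzymes, Car2 had the smallest p, and its values with EGF were high in all but 1 library. Car2 (ENSMUSG00000027562), on chromosome 3 at 14886273 to 14900770 on the plus strand, was at 264, 266, 246, 249 and 216 CPM in Saline 1 to 5 and at 308, 337, 270, 294 and 234 CPM in EGF 1 to 5. EGF 1 to 4 lay above all 5 saline libraries, and EGF 5 lay below 4 of them. The log2 fold change was 0.22 (SE 0.10, edgeR adjusted p = 0.552, unadjusted p = 0.0604), and 0.15 without EGF 2, the highest library. Without EGF 5 the means were 248 ± 19.9 CPM (n = 5) and 302 ± 27.9 CPM (n = 4), and the log2 fold change was 0.28 (SE 0.08, edgeR adjusted p = 0.164). Without EGF 5, DESeq2 called Car2 (log2 fold change 0.28, adjusted p = 0.0304), as it called 1.35% of all genes as higher with EGF, while edgeR called 0 of the 8 erythroid genes and 0.0611% of all genes. Car2 and Hemgn were then the 2 of 8 with an unadjusted edgeR p under 0.05, both higher with EGF, where 8.38% of all genes were. Car2 was also the only erythroid gene whose groups no longer overlapped, and 2.66% of all genes separated in that direction without EGF 5.

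Car1, which lies close to Car2 and marks committed erythroid progenitors, varied far more. Car1 (ENSMUSG00000027556), on chromosome 3 at 14766216 to 14808368 on the minus strand, was at 22.0, 26.5, 32.8, 42.1 and 26.8 CPM in Saline 1 to 5 and at 19.2, 59.2, 43.4, 43.9 and 7.00 CPM in EGF 1 to 5. EGF 2, 3 and 4 lay above every saline library and EGF 1 and EGF 5 below every one. The log2 fold change was 0.20 (SE 0.45, edgeR adjusted p = 0.873), 0.46 (SE 0.26, adjusted p = 0.389) without EGF 5 and -0.08 without EGF 2, so that its sign rests on single libraries. Car1 counts per 100 Car2 counts ran from 8.30 to 16.9 with saline and from 2.99 to 17.6 with EGF.

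Alas2 was close to the limit of detection except in EGF 5. Alas2 (ENSMUSG00000025270), on chromosome X at 150547375 to 150570638 on the plus strand, had 2, 6, 5, 21 and 11 counts in Saline 1 to 5 and 11, 10, 6, 9 and 111 counts in EGF 1 to 5. In CPM, EGF 5 was at 15.5, which is 5.51 times the highest other library (Saline 4, 2.82 CPM), and EGF 1 to 4 were at 0.856 to 1.38 CPM. The means were 1.18 ± 1.02 CPM with saline (n = 5) and 1.15 ± 0.235 CPM in EGF 1 to 4 (n = 4). Without the filter on low counts, edgeR gave a log2 fold change of 1.74 (SE 0.90, adjusted p = 0.586), and without EGF 5 DESeq2 gave -0.04. Of the exonic bases of Alas2, 15.5% are overlapped on the other strand, by Apex2 and Mir3620. The strand setting of the counting is not given in the sources used here. Apex2, a DNA repair nuclease, had 13 counts in EGF 5 and 59 to 152 elsewhere. Whether reads of the overlapping genes entered the Alas2 counts was not tested. No exon of the other 8 genes is overlapped by another gene.

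**Figure D3:**
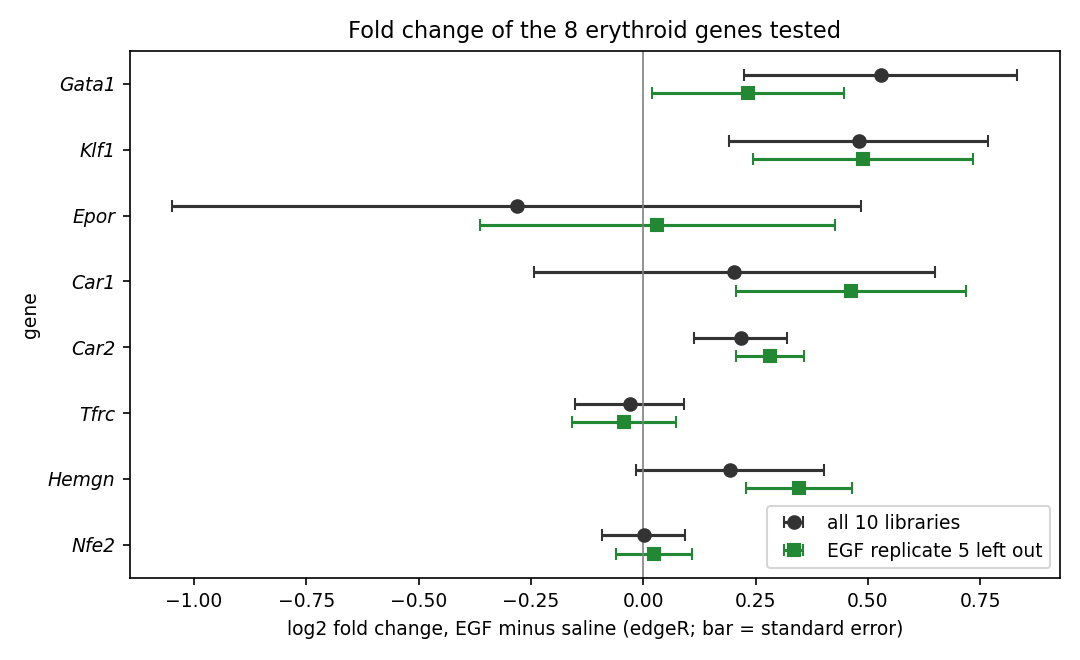
Log2 fold change (EGF minus saline, edgeR) of the 8 erythroid genes tested, with bars for the standard error, from all 10 libraries (dark circles) and without EGF 5 (green squares). Leaving out EGF 5 lowers Gata1 from 0.53 to 0.23, raises Car1 from 0.20 to 0.46 and narrows the bars of Epor, Car1, Car2 and Hemgn.

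A pair of EGF libraries held 7 of the 9 highest values, in different ways. EGF 2 was the highest of all 10 libraries for 5 of the 9 erythroid genes (Klf1, Epor, Car1, Car2 and Hemgn), and 6.13% of all genes tested were highest there. By list, 10 of 22 tested early erythroid progenitor genes, 10 of 32 red cell membrane and late erythroid genes and 6 of 17 genes of erythropoietin receptor signalling were highest in EGF 2. So were 3 of 24 erythroid transcription factors and cofactors, 2 of 23 genes of iron uptake and handling and 1 of 15 of heme synthesis. Of 5 other carbonic anhydrases, 2 were. Markers of other cells also had a share there, with 5 of 8 tested T and NK cell markers, 5 of 12 megakaryocyte and platelet markers and 4 of 9 mast cell and basophil markers. Of 12 stem and multipotent progenitor markers, 1 was highest there. The eosinophil, neutrophil, monocyte, B cell, endothelial and proliferation lists each had 0. EGF 5 was the highest for Gata1 and Alas2 and the lowest for Epor, Car1 and Hemgn, so it did not follow one direction. In that library Rhag and Rhd, which encode Rh proteins of the red cell surface, also had 0 counts, against 6 to 60 counts in the other libraries. The part of library quality in these values was not tested.

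**Figure D4:**
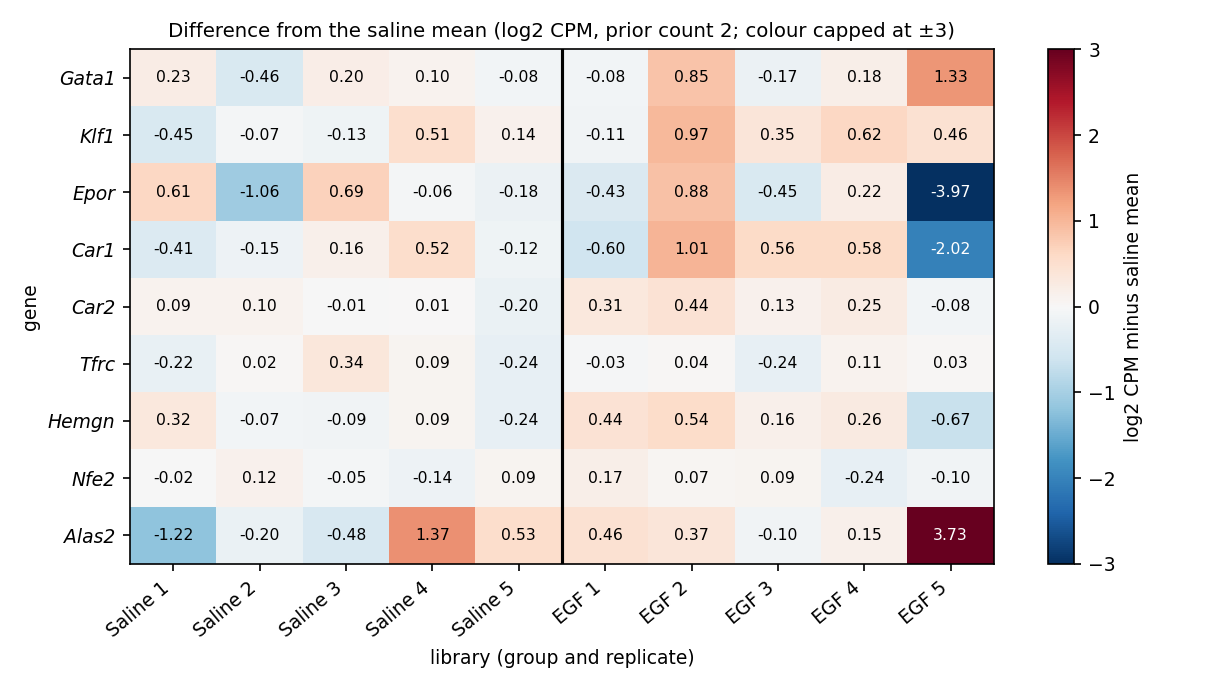
Difference of each library from the saline mean in log2 CPM (prior count 2, which sets the value for the Epor count of 0), for the 9 erythroid genes; red is higher, blue is lower, and colours are capped at 3 in either direction. EGF 2 is higher than the saline mean for all 9 genes, and EGF 5 has both the highest value, Alas2, and the lowest, Epor.

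Genes of the same pathways were described from lists with the 9 genes left out. With all 10 libraries edgeR called 0 of 132 genes of these lists, with 9 at an unadjusted p under 0.05, where 8.87% of all genes were. Without EGF 5 it called 0 of 134, with 21 at an unadjusted p under 0.05. In that fit 8.38% of all genes were at such a p and higher with EGF, and the share in either direction was not counted. DESeq2 and limma-voom, with and without quality weights, called 0 of them with all 10 libraries too. Without EGF 5, DESeq2 called 3 of 134: Ldb1, Jak2 and Socs3. That share is near the 2.38% of all genes that it called, so the count does not set these lists apart. Among 24 erythroid transcription factors and cofactors tested, 17 were above 0, with a median log2 fold change of 0.13 (0.08 without EGF 5), and 1 had an unadjusted p under 0.05. That gene was Sox6, which helps silence embryonic globin genes, at 23.3 ± 2.36 CPM with saline and 37.5 ± 13.0 CPM with EGF (log2 fold change 0.69, SE 0.22, edgeR adjusted p = 0.552), and its log2 fold change was 0.54 without EGF 5. Ldb1, the adaptor that joins GATA1 to its partners, was 1 of the 2 genes with a higher call in DESeq2 without EGF 5 (log2 fold change 0.24, adjusted p = 0.0298; edgeR adjusted p = 0.145). With all 10 libraries its log2 fold change was 0.17 (edgeR adjusted p = 0.590). It was named after its values were seen. By the size of p, Gata2 and Mafk came after Sox6. Mafk, a small partner of NF-E2, had a log2 fold change of 0.30, and of 0.17 without EGF 5.

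Of 17 tested genes of erythropoietin receptor signalling, 7 were above 0 with a median of -0.01 (-0.04 without EGF 5). Socs3, an inhibitor of cytokine receptor signalling, was at 28.7 ± 6.87 CPM with saline and 14.7 ± 6.41 CPM with EGF (log2 fold change -0.96, SE 0.37, edgeR adjusted p = 0.552). Without EGF 5 its log2 fold change was -0.72, with an adjusted p of 0.136 in edgeR and 0.00505 in DESeq2. Jak2, the kinase bound to the receptor, was the other higher call in that fit (log2 fold change 0.27, adjusted p = 0.0268; edgeR adjusted p = 0.143). With all 10 libraries its log2 fold change was 0.16 (edgeR adjusted p = 0.681). It was likewise named after its values were seen. Cish, an inhibitor induced by STAT5, had a log2 fold change of 0.40 (SE 0.24), and of 0.26 without EGF 5.

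Of 15 tested genes of heme synthesis, 7 were above 0 with a median of -0.11 (0.06 without EGF 5). Alas1, the form of the enzyme that all cells use, was at 108 ± 28.5 CPM with saline and 80.7 ± 18.7 CPM with EGF (log2 fold change -0.42, SE 0.20, edgeR adjusted p = 0.552), and its log2 fold change was -0.54 without EGF 5. There were 0.345 to 1.85 Alas2 counts per 100 Alas1 counts with saline and 1.09 to 2.28 in EGF 1 to 4, so Alas1 had by far the more counts in all of these. In EGF 5 there were 14.7. Cpox, which acts late in the pathway, had a log2 fold change of 0.43 with all libraries and 0.06 without EGF 5. Of 23 tested genes of iron uptake and handling, 5 were above 0 with a median of -0.24 (-0.09 without EGF 5). They included Ftl1, a ferritin light chain that stores iron, at -0.31 (SE 0.17), and Slc25a28, a mitochondrial iron importer, at 0.46 (SE 0.20). Without EGF 5 these log2 fold changes were -0.17 for Ftl1 and 0.23 for Slc25a28.

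Few counts fell on globin genes. The adult globin genes Hba-a1, Hba-a2, Hbb-bs and Hbb-bt are near-identical pairs, whose reads the counting could split or leave out. Together they had 21 to 79 counts per library. They made up 5.25 ± 2.96 of every 1000000 counts with saline and 5.16 ± 2.06 with EGF (SD, n = 5 each; exact two-sided permutation p = 0.968, where 0.00794 is the smallest that 5 against 5 allows). The embryonic globins Hba-x, Hbb-y and Hbb-bh1 were at 0 in every library.

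Of 32 tested red cell membrane and late erythroid genes, 19 were above 0 with a median of 0.06 (0.13 without EGF 5), and of 22 tested early erythroid progenitor genes, 15 were above 0 with a median of 0.20 (0.21 without EGF 5). The lists share 5 genes. One of them is Ermap, a blood group protein of the erythroid membrane, at 18.0 ± 5.93 CPM with saline and 32.3 ± 12.0 CPM with EGF (log2 fold change 0.84, SE 0.31, edgeR adjusted p = 0.552), with 0.68 without EGF 5. Trib2, a pseudokinase, was at 6.16 ± 2.54 CPM and 12.2 ± 4.03 CPM (log2 fold change 0.99, SE 0.35, edgeR adjusted p = 0.552), with 0.87 without EGF 5. Cd24a, a surface protein of several immature blood cells, was at 269 ± 23.0 CPM and 211 ± 48.8 CPM (log2 fold change -0.35, and -0.23 without EGF 5). Of 5 other carbonic anhydrases tested, 2 were above 0 (median -0.07, and 0.24 without EGF 5), and Car3, Car9 and Car12 had group means of 2.97 to 5.65 CPM.

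**Figure D5:**
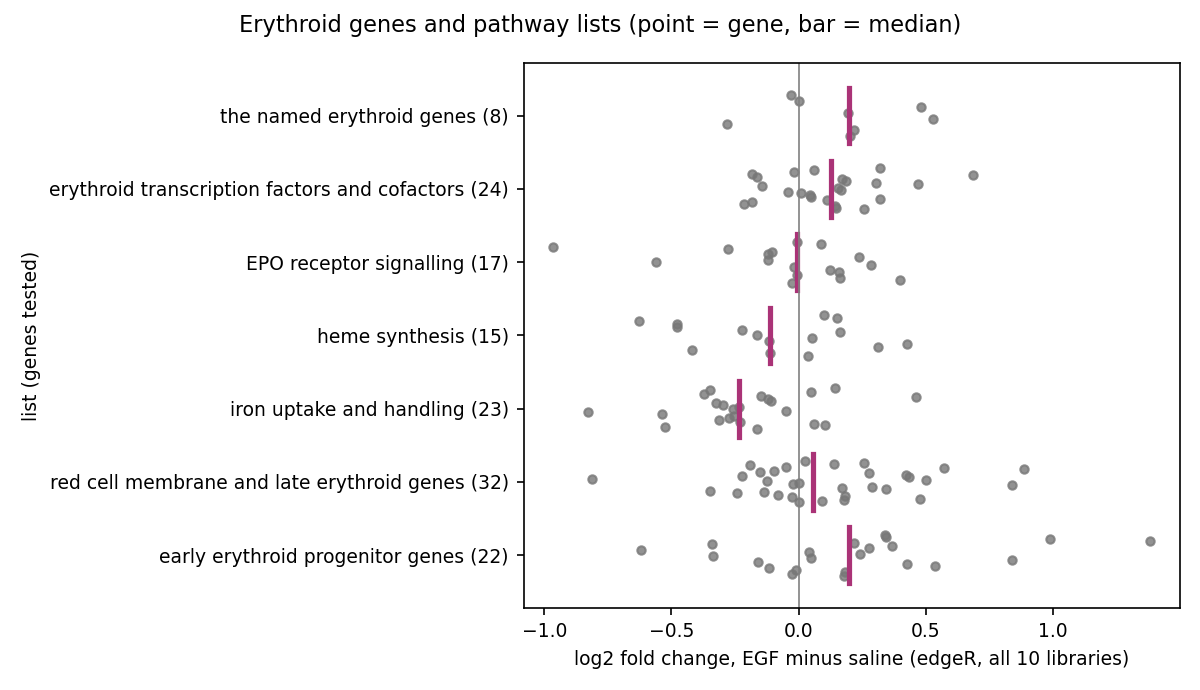
Log2 fold change (EGF minus saline, edgeR, all 10 libraries) of each tested gene (points) of the erythroid genes described and of 6 pathway lists, with the median of each list as a bar; the globins, with 1 gene tested, and the other carbonic anhydrases are not drawn. The medians drawn run from -0.24 for iron uptake and handling to 0.20 for the erythroid genes and the early erythroid progenitor genes, and no point passed the test over all genes.

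Markers of other cells were summed beside the erythroid genes, and with all 10 libraries the ranges of the groups overlapped for each list given here. The 9 erythroid genes summed to 520 to 588 CPM with saline and 546 to 733 CPM with EGF, where 546 CPM was EGF 5. EGF 1 to 4 summed to 599 to 733 CPM, above all saline libraries. Car2, which also separated without EGF 5, was the largest part of this sum, with a saline mean of 248 CPM. The 12 mast cell and basophil markers summed to 754 to 983 CPM with saline and 810 to 1093 CPM with EGF, and 8 of the 9 tested were above 0 (median 0.28, and 0.26 without EGF 5). Prss34, a basophil protease, was at 87.8 ± 20.7 CPM with saline and 114 ± 32.3 CPM with EGF, while the mast cell proteases Mcpt4, Cma1 and Tpsb2 had 0 to 4 counts per library. The 15 megakaryocyte and platelet markers summed to 463 to 672 CPM and 452 to 635 CPM, and 4 of 12 tested were above 0 (median -0.17); without EGF 5, 6 of 12 were, with a median of -0.01. Pf4, a platelet chemokine, was at 9.51 to 13.7 CPM with saline and at 32.1 CPM in EGF 2, the library in which most of the erythroid genes were highest. The 12 neutrophil and granule markers summed to 1658 to 5788 CPM with saline and 1757 to 2860 CPM with EGF, and Mpo, myeloperoxidase of granulocyte progenitors, had a log2 fold change of -0.63 (SE 0.26, edgeR adjusted p = 0.552), and of -0.66 without EGF 5. Of the granule markers, 5 of 10 tested were above 0 (median -0.22), and without EGF 5 0 of 11 were (median -1.51). Of all markers of cell types and proliferation tested, edgeR called 0 of 90 with all 10 libraries, and limma-voom called 0 with and without quality weights. In edgeR 12 of the 90 were at an unadjusted p under 0.05, where 8.87% of all genes were. DESeq2 called 1 of 96, Epx, as lower, where it called 0.206% of all genes in either direction. Without EGF 5, DESeq2 called 3 of 92 as lower with EGF, where it called 2.38% of all genes in either direction: Prtn3, a granule protease (log2 fold change -0.95), Epx, eosinophil peroxidase (-1.88), and Nkg7 of cytotoxic cells (-0.49). In edgeR without EGF 5, 0 of 95 were called, with adjusted p-values of 0.136, 0.136 and 0.161 for these 3 genes. Of the 95, 26 were at an unadjusted p under 0.05 in either direction, and the share of all genes in either direction was not counted for that fit. The part of these cells in the erythroid values was not tested, and in bulk RNA fewer cells of a type and less RNA per cell cannot be told apart.

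The genes whose log2 CPM over the 10 libraries followed the mean of the 8 erythroid genes most closely were Ifit3 (Pearson r 0.931), H2-Aa (0.917), Igtp (0.905), Gpr108 (0.902) and Tnk2 (0.900). Without EGF 5 the r values over 9 libraries were 0.869 to 0.922. All 5 of them were highest in EGF 2 and lowest in EGF 5. H2-Aa, a class II antigen presentation gene, was at 44.8 CPM in EGF 2 and at 5.18 to 18.7 CPM in the other libraries. They are the 5 highest of all genes tested, chosen for this likeness, so the r values are a description and carry no test.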

How the data were processed

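The authors deposited 1 table of raw read counts by gene for each library, without normalization, and 55394 of the 55573 identifiers were found in GENCODE M21. Per the submitters' processing notes, bcl2fastq 2.17 and STAR were used with the build GRCm38 (mm10). How reads were assigned to genes (tool, strand, annotation) is not given in the sources used here. Per the labels' protocols, RNA was depleted of rRNA and libraries were amplified by PCR, so counts are not independent molecules. The upper limit given for Epor covers counting error only, while SDs and standard errors reflect the spread between libraries.

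Genes were kept by filterByExpr (minimum count 10), scaled by TMM and tested in edgeR 4.0.16 (R 4.3.3) by the quasi-likelihood F test, EGF minus saline, all 10 libraries, no covariates, with Benjamini-Hochberg adjustment over all 12874 genes and a threshold of 0.05. CPM were computed from the deposited counts with these factors. Alternatives used other scalings, filters, DESeq2 1.42.0, limma 3.58.1, a replicate block and fewer libraries. Fits without EGF 5 in DESeq2, without EGF 2 and 5, and without EGF 3 and 4 were chosen after seeing the data. The globin share was tested with scipy 1.17.1. The fits were tested on simulated data.

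The erythroid genes, lists and alternatives were chosen with earlier results of these data known. All 9 genes are named. Some items are not reported here. From each pathway list the text drew on the 3 tested genes with the smallest edgeR p, from each cell type list on the 3 with the highest mean CPM, and it names the 5 genes most like the erythroid mean; Rhag, Rhd, Pf4, the 3 mast cell proteases, Apex2, Ldb1 and Jak2 are outside this rule and were chosen after their values were seen.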

Additional observations from a re-analysis of the deposited data

Results flagged for a closer look

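Each measure was checked in each group of 5 libraries for a highest or lowest library far from the others. Of 30 such groups, 5 held one, and chance alone marks about 1 in 20. Alas2 in EGF 5, at 15.5 CPM, lay far above the other EGF libraries, as did its ratio to Alas1 there, at 14.7 Alas2 counts per 100 Alas1 counts. The number of genes with a count in EGF 5, 12731, lay far below the other EGF libraries. The total of Saline 3, 8370820 counts, was far above the other saline libraries, and the total of EGF 3, 6805106 counts, far below the other EGF libraries.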

How the results depend on the processing

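The number of erythroid genes called stayed at 0 under every alternative but DESeq2 without EGF 5, which called 1, Car2; leaving out each library in turn gave 0 to 0. The number of genes called over all genes was 1 and became 0 with library size only, 28 with DESeq2, 12 with limma-voom with quality weights, 304 with DESeq2 without EGF 5, 20 without EGF 2 and 5, 0 without EGF 3 and 4, and 0 to 8 leaving out each library, with 8 without EGF 5. The replicate numbers did not pair the samples (correlations of same-numbered libraries -0.08 to 0.02, 1 of 10 libraries closest to its own number), and the replicate block gave 0 calls, a median of 0.073 over the erythroid genes, -0.053 for Car1 and -0.0033 for Nfe2. The median was 0.078 with limma-voom, 0.0092 without EGF 2 and 5, and 0.092 to 0.26 leaving out each library. The median without EGF 2 and 5, and some of those leaving out each library, were over 9 genes with Alas2 among them, so the gene set differs between these medians. Single genes turned sign as follows. Gata1 was -0.040 without EGF 2 and 5. Epor was 0.036 with quality weights, 0.032 with DESeq2 without EGF 5, and -0.74 to 0.031 leaving out each library. Car1 was -0.071 with limma-voom, -0.085 without EGF 3 and 4, and -0.083 to 0.46 leaving out each library. Tfrc ran from -0.090 to 0.066 and Nfe2 from -0.044 to 0.056 leaving out each library, and Nfe2 was -0.015 with upper-quartile scaling, -0.0023 with library size only, -0.0088 with no filter and -0.0044 with limma-voom. Alas2 was -0.038 with DESeq2 without EGF 5 and -0.088 without EGF 2 and 5, and Cpox was -0.0012 with quality weights and -0.018 without EGF 2 and 5. The globin difference, -0.085 of every 1000000 counts, became 0.044 with mitochondrial counts left out and ran from -0.70 to 1.17 leaving out each library. Beyond the libraries left out, the cause of these shifts was not tested. The median of all genes stayed between -0.08 and 0.008 on the log2 scale. Depth limits Epor and Alas2 most.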
